A study of Mus musculus with 7 samples.

Results

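HDAC1 binding was examined at the 8 genes that encode the receptors, co-receptors and dispatcher of the Hedgehog (HH) pathway in the mouse limb bud: Ptch1, Hhip, Smo, Boc, Cdon, Gas1, Lrp2 and Disp1. A peak was counted at a gene when it shared at least 1 bp with the gene body plus 20 kb on each side. Of the 15347 HDAC1 peaks in the deposited list, 18 met this rule, and they fell at 7 of the 8 genes. ChIP-seq had been performed with 4 HDAC1 immunoprecipitates (antibody Abcam ab7028) and 3 input controls without antibody. Every sample came from wild-type Swiss Webster embryos at E11.5 (40 to 44 somites), and no other genotype or treatment was analysed here. By the labels, each sample pooled the forelimb and hindlimb buds of 3 litters, so a site bound in a few cells and a site bound weakly in many cells cannot be told apart. The 7 samples are represented by a single peak list, which gives a position and a place in rank order for each peak. The list itself carries no read count, height, enrichment or error rate, and statistics that the study published for each peak were not used here. The spread between replicates could therefore not be measured, the depth behind each peak is unknown from this list, and every comparison here is a description without a test. The limb bud identity of the samples could not be checked against marker genes in a list of this kind. A gene without a peak is one at which no region passed the threshold of the authors, and weaker binding there was not detectable.

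HDAC1 is a histone deacetylase that removes acetyl groups from histone tails and works within larger co-repressor complexes. In the HH pathway the ligand binds PTCH1, which otherwise holds the transmembrane protein SMO inactive, and active SMO prevents the GLI proteins from being processed into repressors. BOC, CDON and GAS1 bind the ligand at the cell surface and present it to PTCH1, HHIP sequesters the ligand, LRP2 is a large endocytic receptor, and DISP1 releases the lipid-modified ligand from the cells that make it. Ptch1 and Hhip are themselves classic transcriptional targets of the pathway in the limb and dampen the signal that induces them.

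Sequences at 3 of these genes give examples of stretches with and without a peak, and capitals mark each CpG dinucleotide. All are the reference sequence (RefSeq, GRCm38.p6), not that of the Swiss Webster embryos, and are written 5' to 3' on the minus strand, from which all 3 genes are transcribed. The stretch upstream of the Gas1 start at chr13:60177536-60177785 lay wholly inside the peak at rank 18, the best-ranked of the 18. The stretch upstream of the Hhip start at chr8:80058009-80058258 had no peak. The third is the whole Disp1 peak at rank 9484, chr1:183147550-183147849, which covered the RefSeq start there but stopped short of the nearby GENCODE starts. The Hhip and Disp1 stretches were chosen after the positions of the peaks were seen.
Gas1: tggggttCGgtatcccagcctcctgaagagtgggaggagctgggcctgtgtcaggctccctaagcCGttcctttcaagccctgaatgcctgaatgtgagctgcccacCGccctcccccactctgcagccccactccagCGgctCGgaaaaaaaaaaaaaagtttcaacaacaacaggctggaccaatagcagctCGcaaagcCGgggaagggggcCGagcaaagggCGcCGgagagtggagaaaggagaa
Hhip: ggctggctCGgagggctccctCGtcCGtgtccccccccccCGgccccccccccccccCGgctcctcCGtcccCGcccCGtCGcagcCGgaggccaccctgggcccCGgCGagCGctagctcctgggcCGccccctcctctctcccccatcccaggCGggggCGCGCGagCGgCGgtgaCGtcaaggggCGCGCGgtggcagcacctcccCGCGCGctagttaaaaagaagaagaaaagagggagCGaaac
Disp1: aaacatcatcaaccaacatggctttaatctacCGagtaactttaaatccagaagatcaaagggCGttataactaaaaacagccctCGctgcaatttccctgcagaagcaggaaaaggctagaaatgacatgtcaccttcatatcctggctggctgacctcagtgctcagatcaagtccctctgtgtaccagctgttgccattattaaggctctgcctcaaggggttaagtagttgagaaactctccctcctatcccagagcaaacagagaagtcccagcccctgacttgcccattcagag
The 250 bases shown for Gas1 held 10 CpG dinucleotides at a GC content of 58.8%. Those for Hhip held 28 at 76.0%, so over these short stretches the gene without a peak was the richer in CpG. Over 1000 bp centred on the GENCODE coding starts the order was the reverse, with 138 and 99 CpG dinucleotides at the Gas1 starts and 58 at the Hhip start. The 300 bases of the Disp1 peak held 3 CpG dinucleotides at a GC content of 46.7%.

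Of the 8 genes, 7 had at least 1 HDAC1 peak (87.5%), where 59.3% of the 21938 protein-coding genes did under the same rule. The windows of the 8 genes were longer (median 120 kb against 57.4 kb), which gives more room for a peak. Per 100 kb of window the 8 genes held 1.87 peaks and all protein-coding genes held 1.42. By gene this density was 0 at Hhip, 0.496 at Lrp2 and 0.878 at Boc, below that of all protein-coding genes. It was 1.58 at Cdon, 2.28 at Disp1, 3.04 at Smo, 4.66 at Gas1 and 5.70 at Ptch1. Peaks covered 2.18% of the window bases of the 8 genes, or 21000 bp of 963608 bp, compared with 0.940% over all protein-coding genes. Most of this cover came from a pair of genes, since Ptch1 contributed 8600 bp and Gas1 4600 bp. Counts ranged from 0 peaks at Hhip through 1 at Boc and Lrp2, 2 at Smo, Cdon and Gas1, and 4 at Disp1 to 6 at Ptch1.

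**Figure D1:**
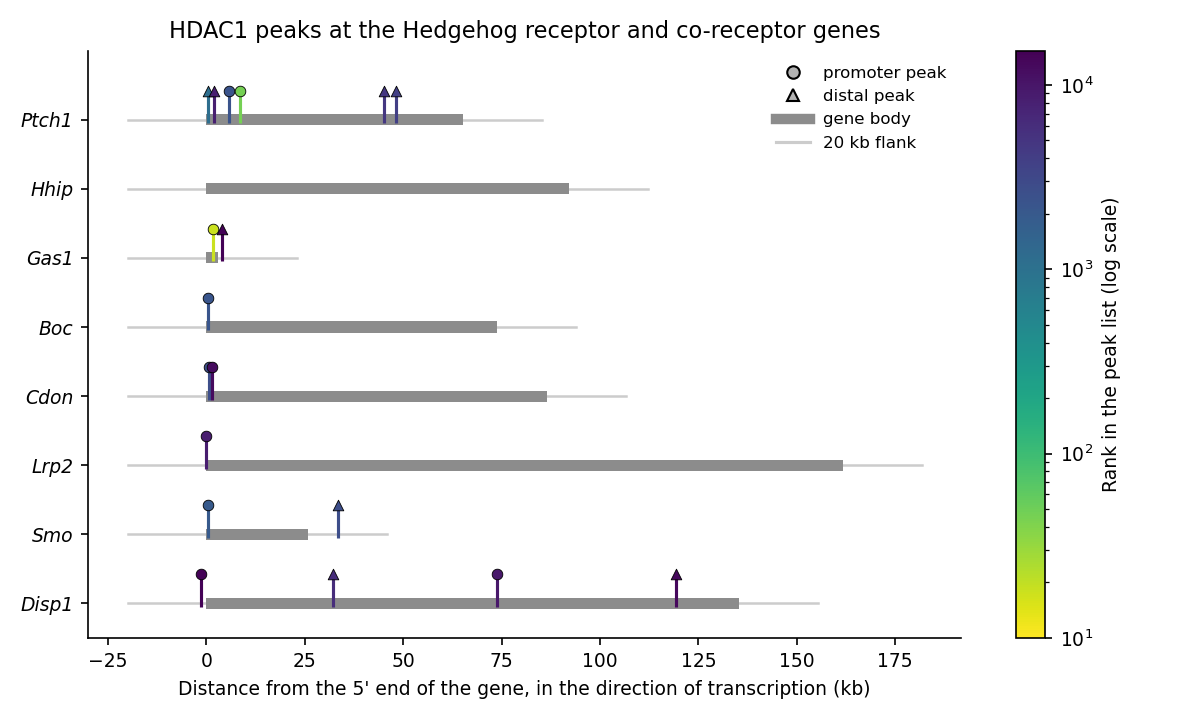
HDAC1 peaks along the 8 genes, drawn to scale from the 5' end of each gene in the direction of transcription (x axis, kb), with 1 row per gene. Grey bars are gene bodies, thin lines the 20 kb flanks, circles promoter peaks and triangles distal peaks, with colour giving the rank on a log scale. The best-ranked peak lies at or near the 5' end of every gene but Hhip, which has none, and Disp1, where 4 peaks are spread out.

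A promoter peak was one that came within 2 kb before or 1 kb after a protein-coding start site of the gene in the basic annotation set. By this rule 10 of the 18 peaks were promoter peaks and 8 were distal. With the start sites of all transcripts, 11 were promoter peaks. The same 7 genes had a promoter peak, where 43.9% of all protein-coding genes had one. At 6 of the 8 genes the start site itself lay inside a peak, compared with 32.7% of all protein-coding genes. These starts are those of GENCODE, and by them Disp1 was the gene with promoter peaks but no start inside them. In RefSeq, the Disp1 peak at rank 9484 covered a start. The Cdon promoter of 300 bases found there was at the internal start 35452076, which is also in GENCODE and had no peak. The distal peaks belonged to 4 genes, with 4 at Ptch1, 2 at Disp1 and 1 each at Smo and Gas1.

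Ptch1, the receptor gene (chr13:63508328-63573598, mm10, minus strand), carried 6 peaks, a number reached by 2.03% of protein-coding genes. Its best peak was the 46th of the list, and 78 protein-coding genes (0.356%) had a better one. This peak, chr13:63562850-63567149, was 4300 bp long and contained both start sites of the coding transcripts in the basic annotation set, with 755 bp of exon and 3545 bp of intron. Only 55 of the 15347 peaks (0.358%) were that long or longer. A second promoter peak, at rank 2345, was 750 bp long and ended 1715 bp upstream of the nearer of those starts. Close by, at the 5' end of the annotated gene body, stood the peak at rank 1101, which spanned 1600 bp over chr13:63572400-63573999. It was distal by the rule, being 6665 bp from the nearest start in the basic set. However, it contained the starts of 2 further Ptch1 transcripts outside that set, at 63573460 and, for a protein-coding one, at 63573598. Counting all transcripts in the annotation, 7 of the 10 Ptch1 start sites lay inside a peak. Between these peaks was a short intronic one of 300 bp at rank 8183, which held no CpG dinucleotide at all. The 4 peaks at the 5' end together covered 6950 bp of an 11150 bp stretch, or 62.3%. The other two peaks lay deep in the gene, 35586 bp and 38636 bp downstream of the nearest start in the basic set. The first of them, chr13:63528250-63528949 at rank 4836, was intronic, and the second, chr13:63524950-63525899 at rank 3964, included 179 bp of coding exon. They were separated from each other by 2350 bp and from the 5' peaks by 33900 bp. In all, peaks covered 12.6% of the Ptch1 body and 8.17% of its window, and 1.48% of protein-coding genes had a larger part of their window covered.

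**Figure D2:**
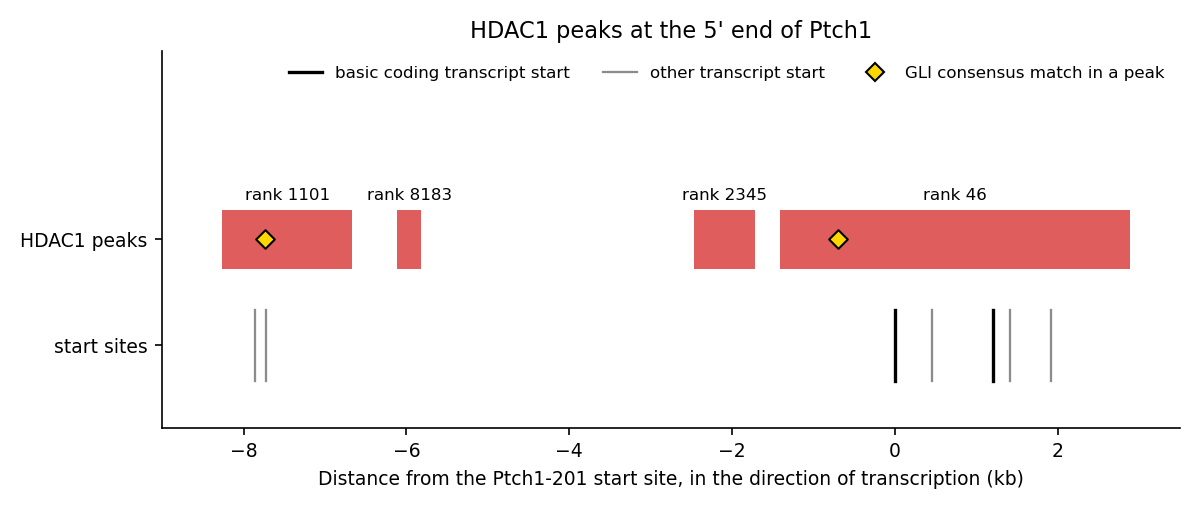
HDAC1 peaks (red bars, upper row) over the 5' part of Ptch1, against the distance in kb from the upstream coding start at 63565735, named on the axis by its transcript, in the direction of transcription (x axis), with annotated start sites (lower row, black for coding transcripts of the basic set and grey for others) and matches to the GLI consensus (diamonds). The 4 peaks cover 6950 bp of 11150 bp and hold 7 of the 10 annotated start sites and 2 matches.

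Hhip (chr8:79965851-80058006, mm10, minus strand), which encodes the decoy receptor, was the only one of the 8 genes without a peak. The nearest HDAC1 peak was 205444 bp upstream of its start, at rank 13193 with a length of 350 bp (chr8:80263450-80263799). Neither of the 2 annotated Hhip start sites was in a peak, and 5 peaks lay within 500 kb of the gene. A gap of this size was not unusual, since the 8929 protein-coding genes without a peak had a median distance of 127971 bp to the nearest one and 62.4% of them were nearer than Hhip. Ptch1 and Hhip, both induced by the pathway, thus stood at opposite ends of the 8 genes in the number of peaks.

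Gas1 (chr13:60174405-60177365, mm10, minus strand) is a single-exon gene for a membrane-anchored co-receptor. Its promoter peak, chr13:60173600-60177899, was the 18th of the list and 45 protein-coding genes (0.205%) had a better one. At 4300 bp it was as long as the best Ptch1 peak and extended past both ends of the gene. It held 1152 bp of coding sequence, 1809 bp of non-coding exon and 1339 bp of flank. The body of Gas1 was therefore wholly under peaks, as it was for 0.214% of protein-coding genes. Only 50 bp separated it from a 300 bp peak at rank 14872, beyond the 3' end of the gene and 3392 bp from the nearest start. Peaks covered 10.7% of the Gas1 window, the highest value among the 8 genes, and 0.711% of protein-coding genes exceeded it.

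Boc and Cdon encode related co-receptors of the immunoglobulin superfamily, and each had its leading peak at the 5' end. Boc (chr16:44485049-44558897, minus strand) had a single peak of 1550 bp at rank 2197, chr16:44557650-44559199, which contained its start. Cdon (chr9:35421128-35507652, plus strand) had a 1000 bp peak at rank 2683 over the start at 35421558 and an intronic one of 250 bp at rank 12344, 300 bp further downstream. The ranks of these neighbours were thus far apart. The other coding start of Cdon in the basic set, 35452076, was 29377 bp from a peak. Gas1 ranked well ahead of Boc and Cdon, since 16.3% of protein-coding genes had a better peak than Boc and 19.6% a better one than Cdon.

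Lrp2 (chr2:69424340-69586065, minus strand), which encodes the endocytic receptor, had the lowest-ranked best peak of the 7 genes. This peak, chr2:69585400-69586799 at rank 8473, contained the starts of 3 of its 4 annotated transcripts, and 46.3% of protein-coding genes had a better one. It was long for its place in the list. At 1400 bp it compared with a median of 400 bp for the peaks within 500 places on either side, of which 0.699% were as long. Lrp2 had no distal peak along a body of 162 kb.

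Smo (chr6:29735503-29761365, plus strand), which encodes the transducer, had a promoter peak of 1300 bp at rank 2006, chr6:29735350-29736649, over both of its annotated starts. Its other peak, at rank 2693 with 1200 bp, was 32506 bp from the Smo start and lay beyond the 3' end of the gene at the promoter of Ahcyl2. It was one of the 18 peaks by the rule of distance alone. With 50 kb on each side in place of 20 kb, a single further peak was counted at the 8 genes, and it too was at a neighbour of Smo. It stood 40754 bp upstream of the Smo body at the promoter of Tspan33, with a length of 300 bp at rank 5937.

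Disp1 (chr1:183086266-183221522, minus strand) had more peaks than any of the genes but Ptch1, and they were short, with 3 of the 4 in the second part of the list, behind the first 7674 places. The lengths were 300, 350, 300 and 150 bp in the direction of transcription, and the ranks were 14786, 6003, 9484 and 13234. The first lay 1160 bp upstream of the nearer of the paired 5' starts. The one at rank 9484, printed above, lay 89 bp upstream of the internal coding start at 183147461. The remaining pair were intronic, 31986 bp and 45112 bp from the nearest coding start. None of the 5 Disp1 starts in GENCODE was inside a peak. Gaps of 33150 bp to 45200 bp separated neighbouring Disp1 peaks, in contrast to the 5' peaks of Ptch1.

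Ordered by the best peak, the genes ran Gas1 (18), Ptch1 (46), Smo (2006), Boc (2197), Cdon (2683), Disp1 (6003) and Lrp2 (8473), with Hhip unranked. The median of these 7 ranks was 2197, and that of the protein-coding genes with a peak was 4306. Ranks give an order only, and how far apart Smo, Boc and Cdon were in enrichment was not analysed here. Of the 18 peaks, 11 were in the first 7674 places and 7 were behind the middle of the list.

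**Figure D3:**
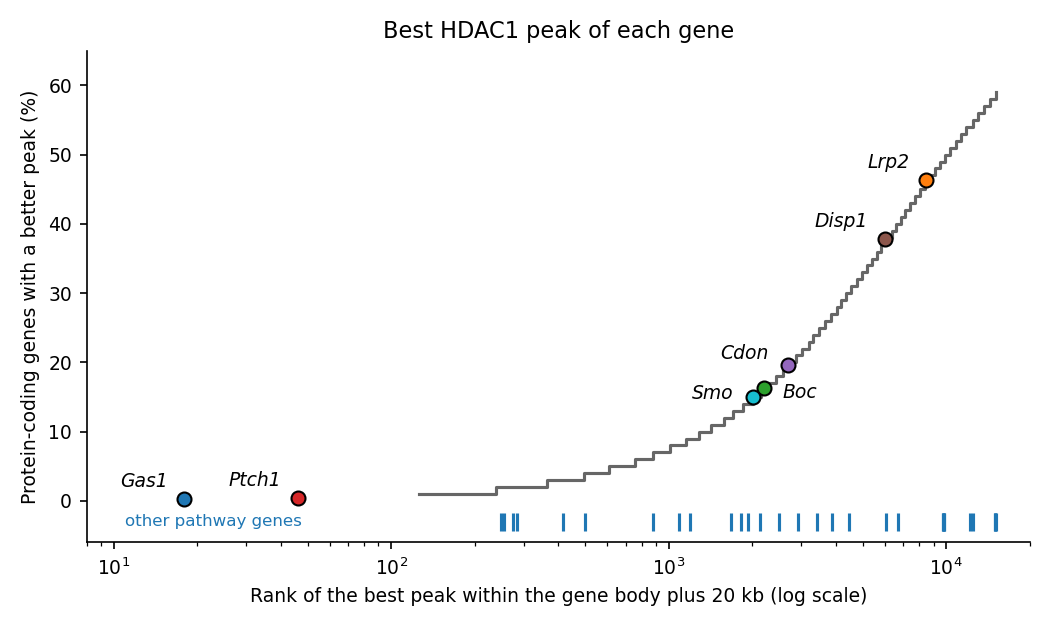
Rank of the best HDAC1 peak of each gene (x axis, log scale) against the percentage of protein-coding genes with a better one (y axis). Coloured points are 7 of the 8 genes, the line is the distribution over protein-coding genes and the ticks at the bottom are other HH pathway genes; Gas1 and Ptch1 lie far to the left of the other five.

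The peaks at these genes were longer than the usual HDAC1 peak, with a median of 850 bp (150 to 4300 bp) against 450 bp in the whole list. The promoter peaks had a median length of 1150 bp and a median rank of 2514. The distal peaks had a median length of 525 bp and a median rank of 5419.5. They were distal to the promoter of their own gene and included the Smo peak of 1200 bp at the Ahcyl2 promoter. In the whole list, the 10757 peaks at coding promoters of any gene had a median of 550 bp and the 4590 away from them 300 bp. The Ahcyl2 promoter peak would count among the former there. The distal medians of 525 bp and 300 bp therefore rest on different definitions and cannot be compared directly. Length and rank went together throughout the list, so that a long peak was usually an early one. Beside the Lrp2 peak, the clearest departure was the Disp1 peak at rank 13234, as 99.8% of the peaks around it were at least as long.

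**Figure D4:**
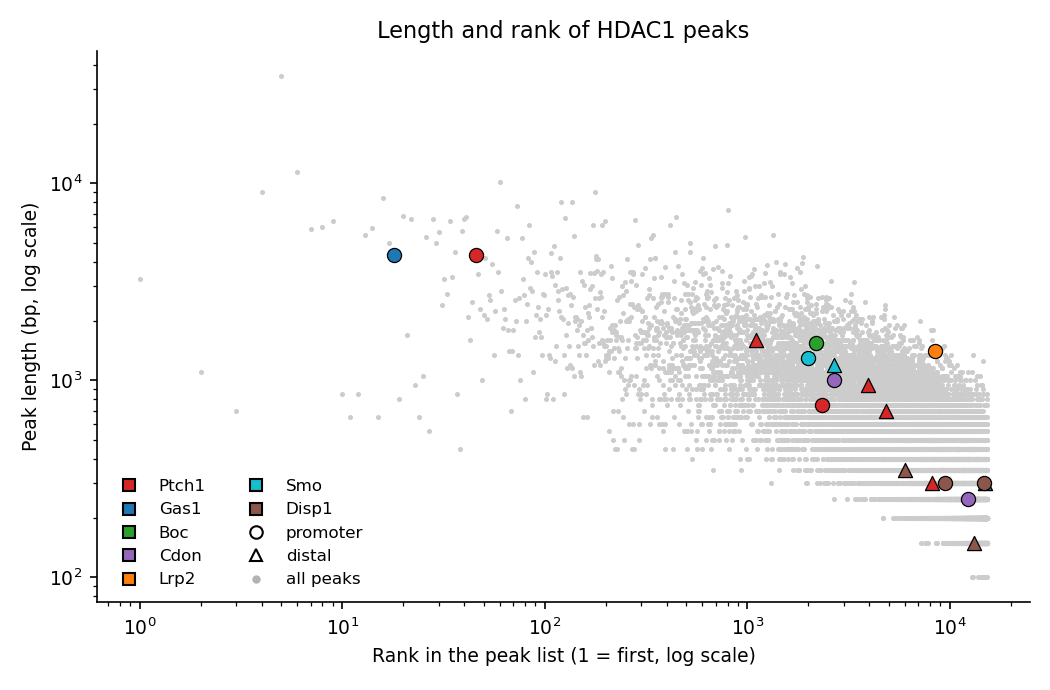
Length in bp (y axis, log scale) against rank (x axis, log scale) of all 15347 HDAC1 peaks (grey) and the 18 peaks at the 8 genes (colour by gene, circles for promoter and triangles for distal peaks). The Gas1 and Ptch1 peaks of 4300 bp are at the upper left, the Lrp2 peak lies on the upper edge of the cloud at its rank, and the Disp1 peaks lie at the lower right.

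Base composition split the 18 peaks into equal groups. A peak was called CpG-rich when its GC content was at least 55% and its ratio of observed to expected CpG at least 0.6, as is common at CpG islands, and 9 peaks qualified, compared with 64.0% of the whole list. The CpG-rich peaks had a GC content of 56.3% to 74.9%, ratios of at least 0.64 and lengths of 750 to 4300 bp. The other 9 had a GC content of 37.7% to 53.0%, ratios of 0.00 to 0.54 and lengths of 150 to 950 bp. The thresholds themselves set the groups apart, but each of the 18 peaks met both thresholds or neither. A GENCODE start site of the gene lay in 7 of the 9 CpG-rich peaks and in none of the others. Among those others, the Disp1 peak at rank 9484 covered a RefSeq start. The remaining CpG-rich pair were the Ptch1 peak at rank 2345 and the Smo peak at the Ahcyl2 promoter. Every Disp1 peak was in the CpG-poor group, together with the second peaks of Cdon and Gas1 and the 3 intronic or distal peaks of Ptch1 at ranks 3964, 4836 and 8183. In the whole list the CpG-rich peaks were also the longer ones, with a median of 600 bp against 300 bp. The lengths of the groups overlapped there and among the 18 peaks, where the CpG-rich Ptch1 peak at rank 2345 (750 bp) was shorter than the CpG-poor one at rank 3964 (950 bp).

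**Figure D5:**
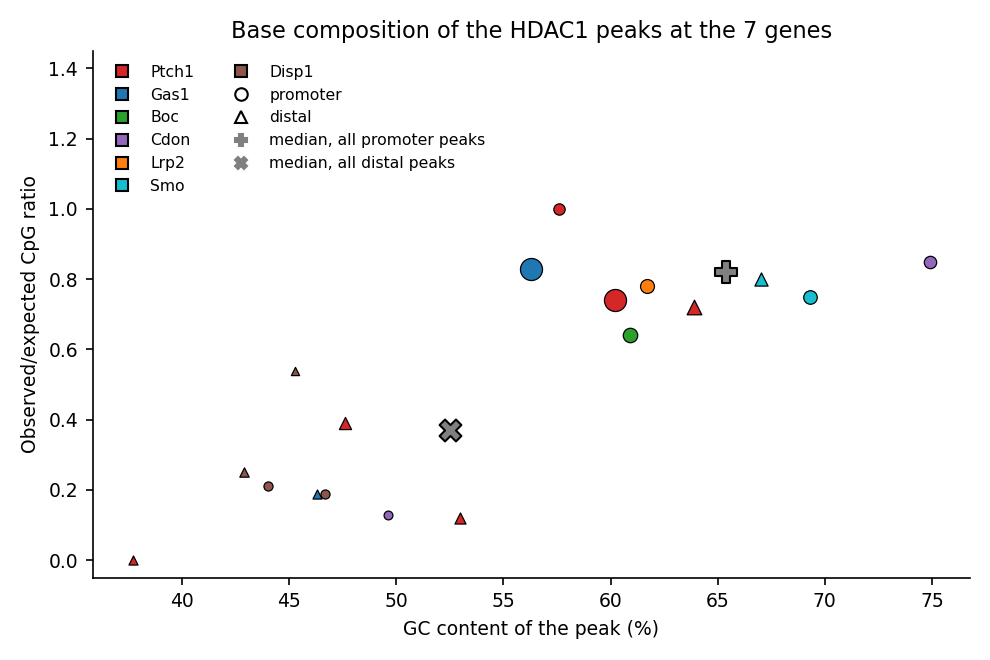
Base composition of the 18 HDAC1 peaks, as GC content in percent (x axis) and ratio of observed to expected CpG (y axis), with colour for the gene, circles for promoter and triangles for distal peaks, and larger symbols for longer peaks. Grey crosses are the medians of all peaks at and away from coding promoters; the 9 CpG-rich peaks lie at the upper right, and the 9 others, with all 4 Disp1 peaks, at the lower left.

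Composition was then read around start sites rather than in peaks, in 1000 bp centred on each of the 14 coding starts of the 8 genes in the basic set. Of 10 CpG-rich starts, 8 were inside a peak, compared with 62.5% of all CpG-rich coding starts. These 10 are not independent, since the paired starts of Gas1, of Lrp2 and of the Disp1 5' end have overlapping windows. Each such pair lay in the same peak or in none. Of the 4 other starts, 1 was inside a peak, compared with 7.64% of all such starts. That start was the second one of Ptch1, with a ratio of 0.58. The CpG-rich starts without a peak were the paired 5' starts of Disp1, with ratios of 0.71 and 0.72 and a GC content of 56.5% and 56.3%. Hhip fell just short of the threshold, with a GC content of 65.1% and a ratio of 0.59, and the 250 bases printed above were richer. Hhip was thus counted among the 4 other starts. Both Hhip and the 5' end of Disp1 held CpG dinucleotides and had no peak over the start. Whether CpG content bears on the lack of a peak was not tested.

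GLI proteins act on HH target genes through the consensus GACCACCCA, which was searched for on both strands of every peak. It was present in 2 of the 18 peaks, both at Ptch1, whereas 0.645% of all HDAC1 peaks held it. Ptch1 was thus the 1 gene of the 8 with such a peak, compared with 0.857% of protein-coding genes. Long peaks hold more letters, and the Ptch1 matches were in peaks of 4300 bp and 1600 bp. The matches are printed with 30 bases on each side, on the strand that reads GACCACCCA, with the match in capitals.
Ptch1 rank 46, chr13:63566405-63566473, plus strand: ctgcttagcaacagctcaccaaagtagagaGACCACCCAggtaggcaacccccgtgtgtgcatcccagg
Ptch1 rank 1101, chr13:63573435-63573503, minus strand: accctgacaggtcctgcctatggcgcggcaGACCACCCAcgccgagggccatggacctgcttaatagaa
The first match was 704 bp upstream of the nearest coding start in the basic set. The second was 9 bp upstream of the start at 63573460, of a transcript annotated as subject to nonsense-mediated decay. It was also 0.129 kb downstream of the protein-coding start at 63573598, which is outside the basic set. Neither lay in the 300 bp at the centre of its peak, and no match did in any of the 18 peaks, as against 0.326% of all peaks. With any base allowed at the fifth position (GACCNCCCA), 3 of the 18 peaks had a match, and the addition was the intronic Ptch1 peak at rank 4836. In the whole list 2.59% of the peaks had such a match. The windows of the 8 genes contained 12 matches to GACCACCCA in all, and 10 of them were outside peaks, including 2 at Ptch1 and 1 at Hhip. None of the RefSeq promoters of 300 bases found for 7 of the 8 genes contained the consensus, as did 0.253% of all RefSeq promoters. These matches describe letters in the sequence, and no GLI binding was measured in these samples.

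For comparison, 31 other genes of the pathway were taken as a list, from ligands and their processing through the cytoplasmic regulators to the GLI factors. Of these, 29 had a peak and 26 a promoter peak, with a median of 2 peaks per gene, the same as for the 8 genes. Their windows held 1.67 peaks per 100 kb and were covered to 1.22%. Among the 31, the best-ranked peaks were at Sufu (249), which encodes the inhibitor that restrains GLI proteins, Prkaca (255), the catalytic subunit of protein kinase A, and Gsk3b (275), a kinase that phosphorylates GLI proteins. All were later in the list than the best peaks of Gas1 and Ptch1. The most peaks were at Prkaca with 8 and at Scube1, a ligand-release factor, with 6, followed by Shh, Dhh, Sufu and Gli2 with 5 each. Of these, promoter peaks of the gene itself numbered 1 each at Prkaca, Scube1 and Shh. They numbered 2 each at Sufu and Gli2, and 0 at Dhh. Whether the rest belong to neighbouring genes in the same window was not analysed. Scube2 and Spop had no peak in their windows, and their nearest peaks were 45927 bp and 20194 bp away, both nearer than that of Hhip.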

How the data were processed

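HDAC1 ChIP and input libraries were prepared from limb buds with the NEBNext Ultra II or MicroPlex kits. Per the submitters' processing notes, reads were aligned with Bowtie2 2.2.5 to mm10. Peaks had been called by the authors over the samples in CisGenome (threshold on the false discovery rate, 0.05). What they deposited is 1 list of coordinates, with no score, count or other value per peak or sample. The study's published statistics per peak were not used here. The order of the list is taken as the authors' rank. All starts and lengths are multiples of 50 bp, no peaks overlap, and the peaks cover 10.0 Mb (0.367%) of 21 chromosomes. Intervals were read as 1-based with both ends included.

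Gene bodies and start sites came from GENCODE M21, and sequence from RefSeq GRCm38.p6. Overlap needed 1 bp, promoters held 2 kb before and 1 kb after coding starts in the basic set, and the observed to expected CpG ratio was taken over the sequence named. All 8 genes and 31 of 31 other pathway genes were found by symbol, and RefSeq promoters for 7 of the 8, without Boc. All peaks of the 8 genes were described. Of the other pathway genes, those named are the 3 best-ranked, the 3 with the most peaks (with ties) and those without a peak. The members and lists were chosen with earlier results of these data known, and the CpG thresholds after the files were opened. Overlaps in Python 3.11.15 (numpy 2.4.6, pysam 0.24.0, figures in matplotlib 3.10.9) were tested on simulated data and matched a base by base count in 2000 of 2000 regions, and 500 of 500 planted motifs were found.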

Additional observations from a re-analysis of the deposited data

How the results depend on the processing

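Under 14 settings, 78 of 84 alternative values over the 8 genes stayed within 1.5 times the reported one. These include gene bodies from all transcripts, which the gene bodies used already spanned, so that setting returned the reported values unchanged. Limiting the list to its first 7674 peaks left 11 peaks at the 8 genes, 6 promoter peaks and a median rank of 2345. Requiring the start site inside the peak left 6 promoter peaks. Requiring GACCACCCA in the 300 bp at the peak centre left 0 peaks and 0 genes with it. For single genes, 56 of 64 values stayed within 1.5 times. Of the other 8, Smo and Gas1 went to 1 peak without the flanks, Cdon, Gas1 and Disp1 to 1 and Lrp2 to 0 in the first 7674 peaks, and Cdon and Gas1 to 1 after merging peaks within 1000 bp. Gene bodies from the basic transcripts or RefSeq, and start sites of all transcripts inside the peak, were settings added after seeing the data. No paired analysis was possible because the 4 immunoprecipitates share a single list without values per sample, and for the same reason no replicate could be left out.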
